A study of Mus musculus with 2 samples.

Results

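Mir335, Mir149 and Mir342 are microRNA (miRNA) genes that lie in introns of the protein-coding genes Mest, Gpc1 and Evl. They are 3 of the 1973 genes counted in these tables, and were chosen by their level, as single-copy intronic genes from the 25 genes of highest mean sense count. Among those 25 genes, 11 lie in an intron of a protein-coding gene on the same strand and in no annotated exon. Of the 11, 10 share no stretch of 20 bases with the transcript of another counted miRNA gene, and the 3 described here are among the 10. Since the choice used their level, levels, ranks and shares below are descriptions without a test. At the edge of the choice, Mir181d at rank 25 had 8107 and 9136 CPM (sense counts scaled to a common library total) in replicates 1 and 2, and Mir382 at rank 26 had 7235 and 8411 CPM.

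The study sequenced small RNA, in libraries of a size range under 30 bases, from midbrain tissue of healthy B6NCrl mouse embryos aged 15.5 days. Tissue was pooled over males and females, from 78 embryos for replicate 1 and 62 embryos for replicate 2. The labels call the pools biological replicates and give both the same donor record, and no other tissue, age, genotype or treatment was analysed here. The design is therefore 1 group of 2 libraries, and a p-value between them compares reads of these libraries and not conditions. Sense-strand reads of miRNA genes numbered 3429704 in replicate 1 and 5752476 in replicate 2, so 1 read was worth 0.292 and 0.174 CPM. Between 35.8% and 37.7% of all reads mapped to several places and were given to no gene. Of the neural markers 11 of 12 were matched, with a summed level of 18327 and 19680 CPM and none at 0. Mir137 alone had 10800 and 11585 CPM of that sum. Mir124a-1, Mir124a-2, Mir124a-3 and Mir9-2 had means of only 3.69, 3.26, 0.552 and 1.66 CPM, while Mir9-3 averaged 484 CPM. These Mir124a and Mir9 genes are numbered copies, and reads that map to several copies are not in their counts. Liver Mir122 had 43.2 and 76.1 CPM and muscle Mir206 had 11.7 and 16.0 CPM. The other 3 matched muscle markers, Mir1a-1, Mir133a-1 and Mir133a-2, are numbered copies, and their 0 reads do not show that they are absent, because reads that map to several copies are not counted. Red cell markers summed to 197 and 208 CPM, white cell markers to 334 and 319 CPM, and endothelial Mir126a had 24909 and 21568 CPM. In such bulk tissue, fewer cells of a type and less RNA per cell cannot be told apart.

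An intronic miRNA is usually transcribed as part of its host gene's precursor RNA. The hairpin is cut out by the Microprocessor complex of Drosha and Dgcr8, and Dicer then releases a duplex whose arms are called 5p and 3p after their side of the hairpin. One arm is loaded into an Argonaute protein and finds messenger RNAs mainly through its seed, the bases 2 to 8 counted from its 5′ end. Mest is an imprinted gene expressed from the paternal allele, with wide expression in the embryo. Gpc1 encodes glypican-1, a heparan sulfate proteoglycan of the cell surface, and Evl encodes a protein of the Ena/VASP family, which regulates actin filaments. No messenger RNA was measured, so the levels of these hosts are not known here.

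The mature sequences are shown because the seed sets which messages an arm can pair with. They were taken from RefSeq (GRCm38.p6), where all 3 genes were found, and are written 5′ to 3′ with the seed in capitals.
mmu-miR-335-5p: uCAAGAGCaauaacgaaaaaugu
mmu-miR-335-3p: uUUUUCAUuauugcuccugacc
mmu-miR-149-5p: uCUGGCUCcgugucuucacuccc
mmu-miR-149-3p: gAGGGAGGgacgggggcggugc
mmu-miR-342-5p: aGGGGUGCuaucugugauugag
mmu-miR-342-3p: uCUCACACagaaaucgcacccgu
No seed is shared among these 6 mature forms. Among the 1738 mature forms of the RefSeq table, 5 of the 6 seeds occur in no other gene, so each of these 5 stands alone in its seed family in that table. The seed of mmu-miR-149-3p is the exception and occurs in 4 other genes.

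The deposited counts are per gene and join both arms of a hairpin, so the share of each arm was not measured. None of the 6 mature sequences was found in a transcript of another gene, on either strand, among the 141767 transcripts of GENCODE M21. A search of the whole genome was not made. Of the genes that share the seed of mmu-miR-149-3p, those with a count were near the detection limit of 1 CPM. Mir1943 had 9 and 14 reads in replicates 1 and 2, or 2.53 ± 0.135 CPM (SD, n = 2), and Mir7016 had 7 and 12 reads, or 2.06 ± 0.0319 CPM. Both genes of mmu-miR-6967-5p, Gm27775 and Gm27740, had 0 reads in both libraries. They carry the same mature sequence, so its reads map to several places and are given to no gene, and the level of this miRNA is not known here. The mature forms of these seed sharers are shown with the shared seed in capitals. In mmu-miR-1943-5p the match to the start of mmu-miR-149-3p ends with the seed. In mmu-miR-7016-5p and mmu-miR-6967-5p it runs slightly further.
mmu-miR-1943-5p: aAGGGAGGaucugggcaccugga
mmu-miR-7016-5p: cAGGGAGGggagcgagaguag
mmu-miR-6967-5p: cAGGGAGGgauaaagaccagu

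The hairpins are shown with both mature arms in capitals, because a read of either arm adds to the same count.
Mir335 hairpin: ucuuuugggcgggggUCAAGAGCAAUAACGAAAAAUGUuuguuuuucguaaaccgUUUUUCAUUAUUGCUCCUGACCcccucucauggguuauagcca
Mir149 hairpin: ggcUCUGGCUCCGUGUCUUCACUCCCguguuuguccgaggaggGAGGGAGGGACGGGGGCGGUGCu
Mir342 hairpin: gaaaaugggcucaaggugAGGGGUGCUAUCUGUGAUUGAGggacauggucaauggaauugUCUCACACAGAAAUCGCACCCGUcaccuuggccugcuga
The 3 hairpins differed in base composition. The Mir149 hairpin is 66 bases long and 68.2% G or C, and only 19 of 406 hairpins of genes averaging 1 CPM or more had a higher share. The Mir335 hairpin is 98 bases long and 42.9% G or C, below the median of 51.7%, and 329 of the 406 had a higher share. The Mir342 hairpin is 99 bases long and lies close to the median at 51.5%. The Mir149 arms differ most from each other, with 60.9% G or C in the 5p form and 81.8% in the 3p form.

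In the minimum free energy structure predicted by RNAfold, the arms faced each other in all 3 hairpins. Of the 5p arm, 18 of 23 bases paired with the 3p arm in Mir335, 17 of 23 in Mir149 and 17 of 22 in Mir342. The predicted energy was -0.452 kcal/mol per base for Mir335, -0.556 for Mir149 and -0.473 for Mir342, against a median of -0.435 over the 406 hairpins. A lower energy per base was predicted for 168 of these hairpins than for Mir335, for 121 than for Mir342 and for 36 than for Mir149. The structures are predictions from sequence and were not measured.

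In the genome (mm10, GENCODE M21), all 3 genes lie on the plus strand, as do their hosts. Mir335 (ENSMUSG00000065501.1) lies at chr6:30741299-30741396. All 7 Mest transcripts that span it have it in an intron, the same intron of 1316 bases, 474 bases after the exon before it. The number of that intron depends on the transcript. Mir149 (ENSMUSG00000065470.1) lies at chr1:92850378-92850443, in intron 1 of the only Gpc1 transcript that spans it, which has 9 exons. That intron is 21249 bases long, and Mir149 ends 2903 bases before the next exon. Mir342 (ENSMUSG00000065436.1) lies at chr12:108658620-108658718, in an intron of 20189 bases in all 5 Evl transcripts that span it, 5520 bases after the exon before it.

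Each of the 3 is the only counted miRNA gene in its host. Counting only miRNA genes in introns of protein-coding hosts, 474 of the 647 were alone in their host. Among the 36 of them averaging 1000 CPM or more, 23 were alone. Other miRNA genes in a host, such as those in its exons, are not in that count. It is therefore a looser measure than the one for the 3 genes. The nearest counted miRNA genes lay far away and at much lower levels. Mir29a, a miRNA known to rise as neurons mature, lies 321 kb from Mir335 on the other strand and had 164 and 165 CPM. Mir183, of the cluster known from sensory cells, lies 572 kb to the other side, also on the other strand, and had 718 and 599 CPM. The genes beside Mir149, Mir6900 at 386 kb and Mir6901 at 424 kb, had 6 and 2 reads in replicate 1 and 20 and 0 reads in replicate 2. Beside Mir342, Gm23872 at 63.1 kb had no read in either library, and Gm22120 at 2793 kb had 6 and 9 reads.

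Mir335 was the most counted of the 3, with 185641 reads in replicate 1 and 353795 in replicate 2. As a level this was 54127 and 61503 CPM, a mean of 57815 ± 5215 CPM. Its share of the sense counts was 5.41% (95% exact Clopper-Pearson interval 5.39 to 5.44) in the first pool and 6.15% (6.13 to 6.17) in the second. These intervals cover counting error only, since reads are not independent molecules, and they do not overlap. Of all reads in the tables, mapped or not, Mir335 took 2.46% and 2.70%.

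Mir149 had 72210 and 135323 reads in replicates 1 and 2, a level of 21054 and 23524 CPM and a mean of 22289 ± 1747 CPM. It took 2.11% (interval 2.09 to 2.12) of sense counts in replicate 1, against 2.35% (2.34 to 2.36) in replicate 2. Mir342 had 32558 and 58553 reads, a level of 9493 and 10179 CPM and a mean of 9836 ± 485 CPM. Its share was 0.949% (0.939 to 0.960) in the first pool and 1.02% (1.01 to 1.03) in the second. For each gene replicate 2 was the higher library. The levels of the 3 genes were far apart from each other in both libraries.

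Together the 3 genes held 8.47% of sense counts in replicate 1 and 9.52% in replicate 2, a mean of 8.99 ± 0.745%. Of all reads, mapped or not, they took 3.84% and 4.18%. Sense counts leave out reads that map to several places. Shares and ranks can therefore place miRNAs with several copies too low beside these single-copy genes. Against the median gene of at least 1 CPM, which stood at 50.2 CPM in replicate 1 and 52.8 CPM in replicate 2, Mir335 was 1079 and 1166 times as high, Mir149 420 and 446 times and Mir342 189 and 193 times. A bias of library preparation between miRNA sequences that both libraries share does not appear in the spread between them, and was not measured.

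**Figure D1:**
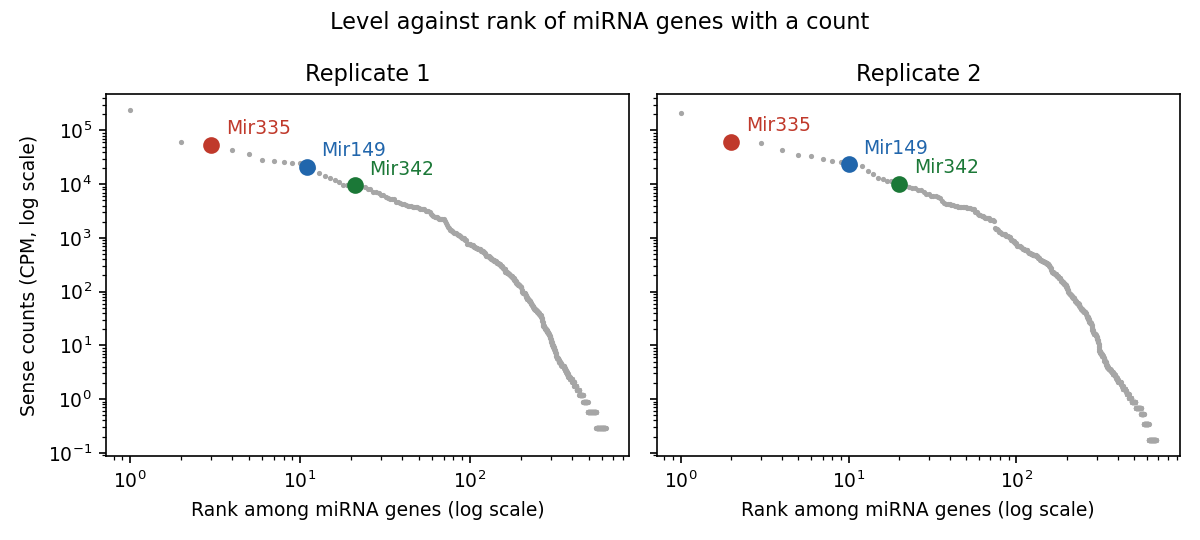
Level of each miRNA gene with a count (CPM, log scale) against its rank (log scale), 1 panel per library; grey points are all other genes. Mir335, Mir149 and Mir342 lie at the upper end of the curve, at ranks 3, 11 and 21 in replicate 1 and 2, 10 and 20 in replicate 2.

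The ratios among the 3 genes were nearly the same in both pools. Mir335 had 2.57 times the reads of Mir149 in replicate 1 and 2.61 times in replicate 2, a ratio of 2.59 ± 0.0308 (SD, n = 2). Mir149 had 2.22 and 2.31 times the reads of Mir342, and Mir335 had 5.70 and 6.04 times. Since a small RNA read covers a mature miRNA and not the annotated gene, counts were not divided by gene length. Divided by that length, the ratio of Mir335 to Mir149 was 1.73 and 1.76, and that of Mir149 to Mir342 was 3.33 and 3.47. The order of the 3 levels was the same on both scales.

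In the order of all levels, Mir335 could not be set apart from the gene above it. Mirlet7g, of the let-7 family that acts in the timing of differentiation, had 60001 and 57696 CPM, so it was above Mir335 in replicate 1 and below it in replicate 2. The genes next below, Mir100 with 43795 and 42545 CPM and Mirlet7i with 37207 and 34496 CPM, were lower than Mir335 in both libraries, with no overlap. Mir99a, the highest gene, was far above at 235821 and 211043 CPM.

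Mir149 stood in a group of 3 neighbouring genes with overlapping levels. Endothelial Mir126a was above it in replicate 1 and below it in replicate 2. Mir30e, which lies in an intron of the transcription factor gene Nfyc, had 20240 and 23159 CPM, lower than Mir149 in both libraries but with an overlapping range. Mir99b, with 25881 and 25990 CPM, lay above the range of Mir149, and Mir26b, from an intron of the phosphatase gene Ctdsp1, lay below it with 15823 and 17479 CPM.

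Mir342 likewise overlapped with the genes above it. Mir135b had 9617 and 11678 CPM and Mir30a 9656 and 11202 CPM, both higher than Mir342 in each library but with overlapping ranges. Mir30d with 8912 and 9252 CPM and Mir20a with 8726 and 8800 CPM lay below the range of Mir342. The gap to Mir30d was 754 CPM between the means, more than the SD of either gene. Further down, at rank 24, Mir23b had 9554 and 7743 CPM, so it was above Mir342 in replicate 1 and below it in replicate 2.

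**Figure D2:**
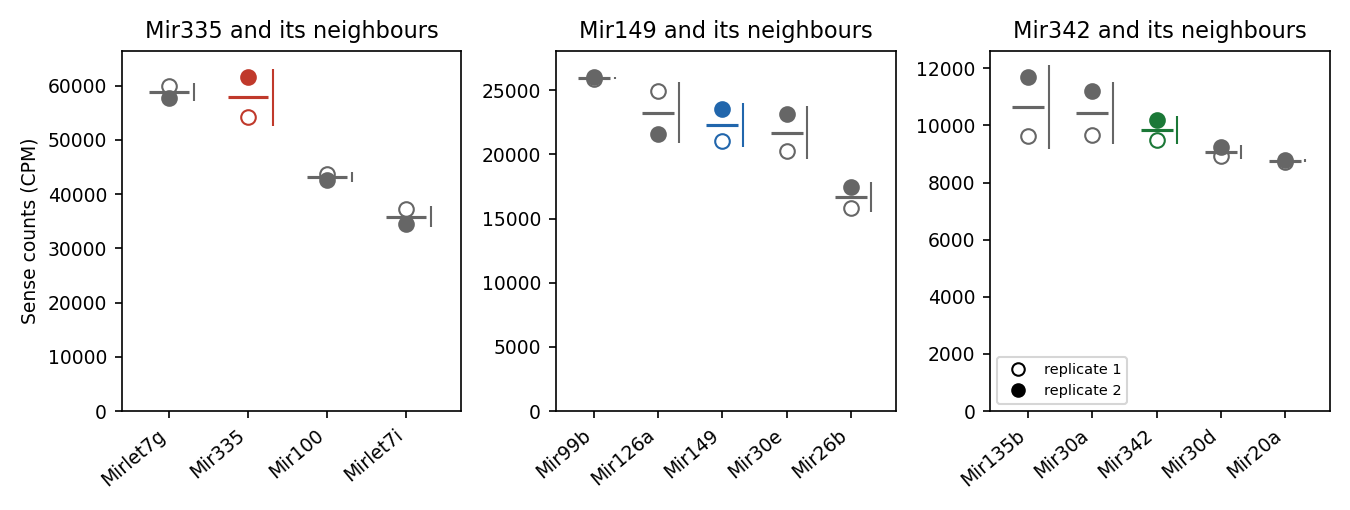
Level (CPM, linear axis from 0) of Mir335, Mir149 and Mir342 (coloured) and of the genes next to each in rank; open circles are replicate 1, filled circles replicate 2, horizontal bars the mean and thin vertical lines the mean ± SD of 2 libraries. Mir99a is left out of the first panel because its level is far higher. The points of Mir335 straddle those of Mirlet7g, and those of Mir149 overlap with the spans of Mir126a and Mir30e.

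As intronic miRNAs of protein-coding hosts, the 3 genes belong to a large class that is mostly at low levels, as are all counted genes. Of its 647 genes, 198 (30.6%) had a mean of at least 1 CPM and 36 a mean of at least 1000 CPM. The median of the 198 was 17.7 CPM. Of all 1973 genes, 474 (24.0%) had a mean of at least 1 CPM, with a median of 52.7 CPM, and 92 had at least 1000 CPM. The class as a whole held 34.1% of sense counts in replicate 1 and 35.8% in replicate 2. Within the class Mir335 had rank 2, Mir149 rank 4 and Mir342 rank 9 in mean level. Mir335 alone took 15.9% and 17.2% of the class's counts in replicates 1 and 2, Mir149 6.18% and 6.56%, and Mir342 2.79% and 2.84%. The 3 together took 24.8% and 26.6%, a mean of 25.7 ± 1.21%. With introns of noncoding hosts added to the class, among them that of Mir99a, the share was 14.2%.

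**Figure D3:**
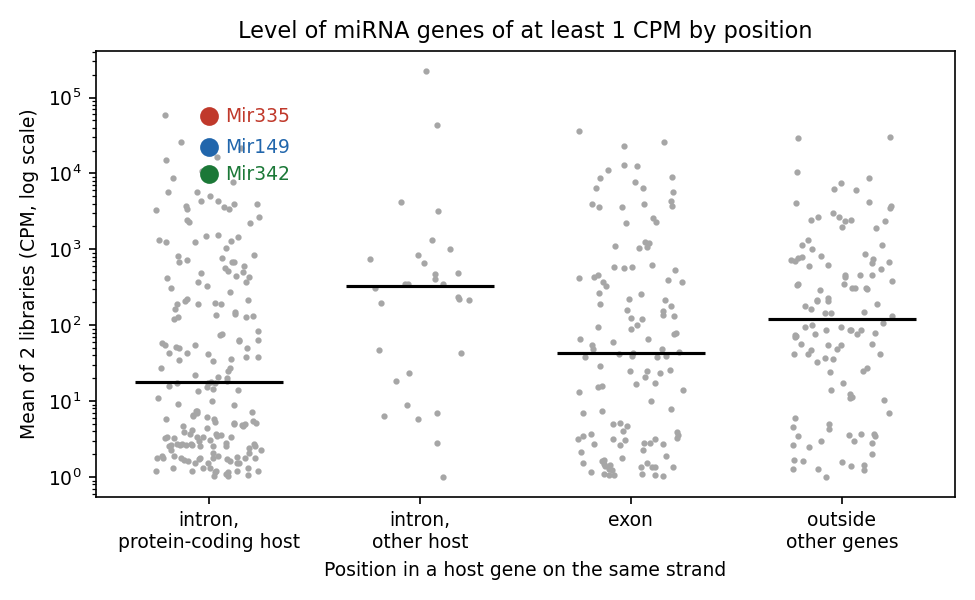
Mean level over 2 libraries (CPM, log scale) of each miRNA gene of at least 1 CPM, by its position in a host gene on the same strand; points are spread sideways at random and bars are medians. Mir335, Mir149 and Mir342 are marked in the class of introns of protein-coding hosts, where they lie far above the median of 17.7 CPM.

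A list of 50 well-known intronic miRNAs, all of them matched, places the 3 among genes of the same kind. All 50 had a mean of at least 1 CPM, and 20 had at least 1000 CPM. The highest were Mirlet7g (Wdr82), Mir335, Mir149 and Mir30e. Some listed genes are numbered copies, such as Mir26a-1 with a mean of 4.77 CPM and Mir103-1 with 5.90 CPM. Reads that map to several copies are not in their counts, so the order of levels can place them too low. Of the 50, 7 overlap an annotated exon on the same strand, among them Mir93 of Mcm7, while the others are intronic as listed. In a list of 5 miRNAs from imprinted regions other than Dlk1-Dio3 and Sfmbt2, Mir335 was the highest by a wide margin. Mir296 and Mir298, near the imprinted Gnas locus, followed with 3504 and 3901 CPM and with 3051 and 3037 CPM. Mir483, in an intron of the growth factor gene Igf2, had 134 and 121 CPM. Mir675, in an exon of the noncoding gene H19, had 26 and 37 reads, or 7.58 and 6.43 CPM.

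**Figure D4:**
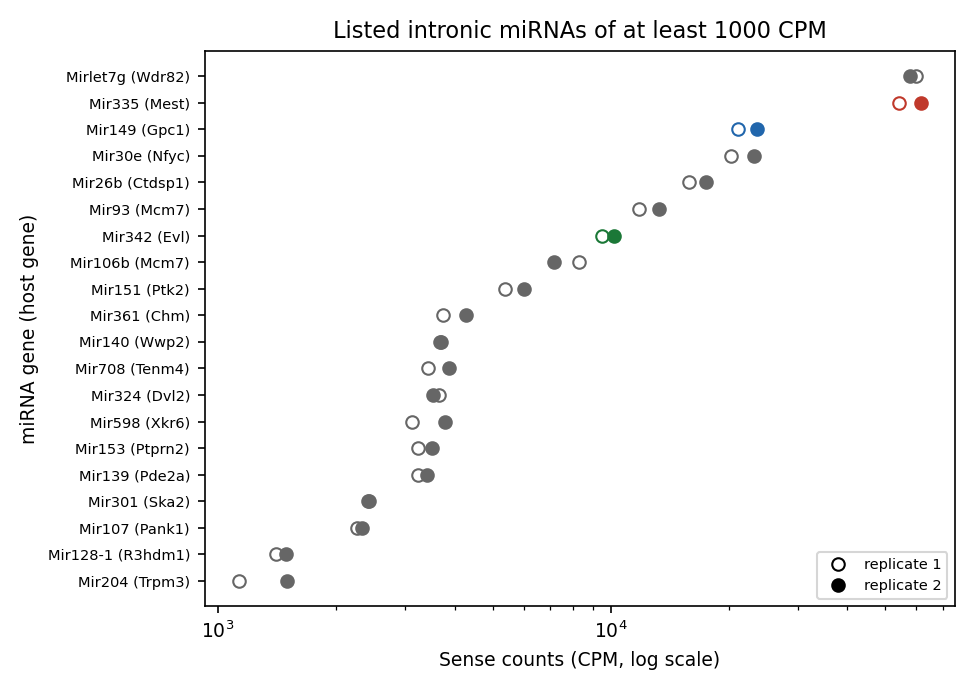
Level (CPM, log scale) of the 20 listed intronic miRNAs with a mean of at least 1000 CPM, each with its host gene in brackets; open circles are replicate 1 and filled circles replicate 2. Mir335 and Mirlet7g stand together at the top, and the filled circle lies to the right of the open one for Mir335, Mir149 and Mir342.

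Between the pools, all 3 genes were slightly higher in replicate 2. After TMM scaling of the libraries, Mir335 was 1.11-fold higher in replicate 2, a log2 ratio of 0.15 (95% counting interval 0.14 to 0.16). Mir149 was 1.09-fold higher, a log2 ratio of 0.13 (0.11 to 0.14), and Mir342 1.05-fold higher, a log2 ratio of 0.067 (0.048 to 0.087). All 3 passed the two-sided conditional exact binomial test on reads, with Benjamini-Hochberg adjusted p of 4.39e-292, 9.81e-80 and 1.73e-10. The test allows for counting error alone. By the same test 19.8% of the 717 genes with a count were called, 9.76% toward replicate 2 and 10% toward replicate 1. Among the 92 genes averaging 1000 CPM or more, 78.3% were called, 38% toward replicate 2 and 40.2% toward replicate 1, so a call at this level was common in both directions. When pools were allowed to vary with a coefficient of variation of 10%, edgeR's exact test gave an adjusted p of 1 for each of the 3 and called 0.418% of genes. With 1 library per pool these ratios have no replicate check.

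The ratios of the 3 genes were within the usual range for genes of their level. Over the 92 genes of at least 1000 CPM, log2 ratios ran from -0.40 to 0.37 with a median of -0.0082, and the median absolute log2 ratio was 0.11. A higher log2 ratio was found for 12 of these genes than for Mir335, for 20 than for Mir149 and for 33 than for Mir342. In absolute size, 28 exceeded Mir335, 40 exceeded Mir149 and 67 exceeded Mir342. Of the 50 listed intronic miRNAs, 16 were higher in replicate 2 and 5 in replicate 1 by the binomial test, with a median log2 ratio of 0.072. Without the 3 members the counts were 13 and 5 of 47 and the median was 0.055. The median was -0.0023 over the 474 genes averaging 1 CPM or more, as all 50 listed genes do, and 0.036 over all 717 genes. When only these 474 genes were tested, 75 were higher in replicate 2 and 77 in replicate 1. In the whole class of introns of protein-coding hosts, the binomial test over all genes called 25 toward replicate 2 and 25 toward replicate 1. Genes of that class averaging 1 CPM or more had a median log2 ratio of 0.015. The calls of the class as a whole thus did not lean toward replicate 2 as those of the list did. The class contains 43 of the 50 listed genes, so it is not a separate check on the list. The rest of the class was not examined apart. Of the 5 miRNAs of imprinted regions, Mir335 and Mir296 were higher in replicate 2 and none in replicate 1, and the median log2 ratio was -0.040. Without Mir335, 1 of 4 was higher in replicate 2 and 0 in replicate 1, and the median was -0.11.

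**Figure D5:**
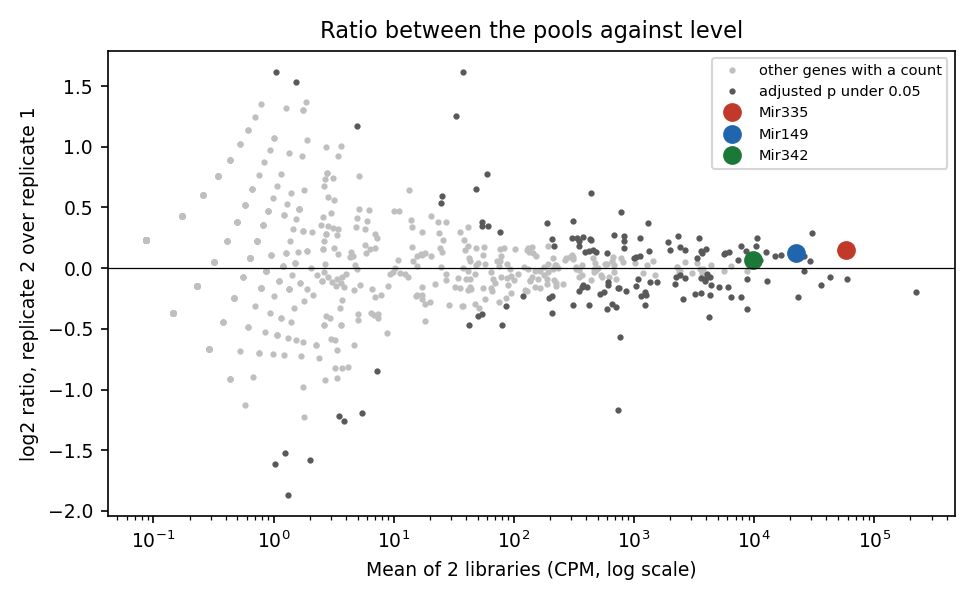
Log2 ratio of replicate 2 over replicate 1 after TMM scaling, with a pseudocount of 1 CPM, against mean level (CPM, log scale) for 717 genes with a count; dark points passed an adjusted p of 0.05 in the binomial test. Mir335, Mir149 and Mir342 lie just above 0, at 0.15, 0.13 and 0.067, among other dark points of like level.

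With 2 libraries, likeness of pattern can be read only as a like ratio between the pools. Among genes of at least 1000 CPM, those nearest to Mir335 in log2 ratio were Mir431 and Mir361 at 0.15 and Mir181b-2 also at 0.15. Nearest to Mir149 were Mir151 at 0.12, Mir93 at 0.13 and Mir296 at 0.12, and nearest to Mir342 were Mir137 at 0.068, Mir322 at 0.070 and Mir130a at 0.059. These are matches over 2 values and describe these libraries only. Mir181b-2 is a numbered copy, and reads that also map to another copy are not in its count.

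Reads on the strand opposite to the genes were nearly absent. Mir149 and Mir342 had 0 opposite-strand reads in both libraries, which, with 3 reads as the limit that a count of 0 allows, permits a share of up to 0.00415% and 0.00222% for Mir149 and 0.00921% and 0.00512% for Mir342. Mir335 had 0 in replicate 1 and 5 in replicate 2. Over all genes, opposite-strand reads were 2.23% and 2.36% of gene reads.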

How the data were processed

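Both libraries of the 1 group (midbrain) were used. The authors deposited whole read counts per miRNA gene, without normalization, in 3 columns (either strand, sense, opposite strand). Per the deposited readme text, reads were aligned to mm10 with GENCODE annotation M4. No source used here names the aligner or counter. The meaning of the columns was taken from their totals and from a layout like that of STAR's gene counts. The 4 rows that name no gene were left out of library sizes. They held 13.4% and 16.9% unmapped, 37.7% and 35.8% multimapping, 3.57% and 3.43% outside genes and 0% ambiguous reads in replicates 1 and 2.

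Names, hosts and positions came from GENCODE M21 on the same assembly, which matched 1894 of 1973 identifiers. A gene was intronic if inside a gene and in no exon of any transcript on that strand. CPM is the sense count scaled to a common library total of sense counts. Depth sets the precision: 3429704 and 5752476 sense reads. Ratios used TMM (edgeR 4.0.16) and a pseudocount of 1 CPM. The test was a two-sided conditional exact binomial test (SciPy 1.17.1) adjusted over 717 genes. It was tried on simulated counts with counting error alone, which cannot show how the test behaves where pools vary. Structures came from RNAfold 2.7.2, R was 4.3.3 and DESeq2 1.42.0.

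Named genes are the members, the 2 genes above and below each in level, ranks 25 and 26, the nearest miRNA genes, the 3 nearest in log2 ratio, seed sharers and up to 4 of highest level per list. Mir93, Mir23b, Mir26a-1, Mir103-1, the cell type markers and, in the imprinted list, all 5 genes are named beyond that as examples. Members, lists and rules were chosen with earlier results of these data known. Alternatives were other columns, totals, scalings (DESeq2 size factors among them), pseudocounts, a filter at 1 CPM, a 10% coefficient of variation and leaving out each replicate. Counts per base of the gene were added after seeing the data.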

Additional observations from a re-analysis of the deposited data

Results flagged for a closer look

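Reads opposite to Mir335 were looked at because opposite-strand reads are not part of the levels or ratios above. Replicate 2 had 5 such reads, above the 3 reads that a count of 0 allows, and replicate 1 had 0. The 5 reads were 0.00141% of the gene's reads (95% exact Clopper-Pearson interval 0.000459 to 0.00330), and the 0 reads of replicate 1 allow up to 0.00162%, so a difference between the libraries was not detectable at this depth. The source of these reads was not tested.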

How the results depend on the processing

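No paired analysis was possible because the study has 1 group. The directions of the 3 ratios between pools stayed the same under every scaling, column, filter and pseudocount tried, with log2 ratios from 0.14 to 0.18 for Mir335, 0.12 to 0.16 for Mir149 and 0.061 to 0.10 for Mir342. With a coefficient of variation of 10% the values were 0.15, 0.13 and 0.067 and none was called. That setting called 3 genes in all, against 142 by the binomial test and 141 to 145 with other scalings or either-strand counts. Levels depend on the total. Without Mir99a in it, the means were 74393 CPM for Mir335, 28684 for Mir149 and 12662 for Mir342, and their joint share was 11.6%. Over all reads they were 25769.5, 9936 and 4386. Leaving out a replicate gave 54127 to 61503 CPM for Mir335, 21054 to 23524 for Mir149, 9493 to 10179 for Mir342 and 8.47% to 9.52% for the joint share. Per base of the gene, ranks were 3, 9 and 25. Ranks leave out multimapping reads, and arms of a hairpin cannot be told apart in these counts.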
